A study of Mus musculus with 18 samples.

Results

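The 35 genes described here encode proteins that carry a cell through mitosis, from the cyclins and kinases that start it to the proteins that divide the cytoplasm. They were chosen by symbol as G2 and M phase genes, with earlier results of these data known. All 35 were found among the 21831 genes of the deposited table. All of them also passed the filter on low counts that kept 13409 genes for testing. Total RNA had been sequenced from macrophages washed out of the peritoneal cavity of 6-week-old C57BL/6 mice, which had been given 1 mL of 3% thioglycollate, an irritant that recruits macrophages, 3 days before. After 4 h of attachment the cells were cultured for 12 h with 20 µM PCN (pregnenolone 16-alpha-carbonitrile, which activates PXR, a nuclear receptor for foreign compounds, in mice) or with its solvent DMSO. Macrophages with PXR deleted in myeloid cells (dMye) gave 6 libraries with PCN (dMye_PCN) and 6 with DMSO (dMye_DMSO). Macrophages with floxed, undeleted PXR alleles (FF) gave 3 libraries with PCN (FF_PCN) and 3 with DMSO (FF_DMSO). The sources used here give neither the promoter that drove the deletion nor the number of animals or any pooling.

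Genes of mitosis are transcribed in waves. In resting or G1 cells they are held down by a repressor complex that binds a short promoter element called the CHR (cell cycle genes homology region), and in G2 the same promoters are switched on with help from FOXM1 and from NF-Y, which binds CCAAT boxes. Their transcripts are therefore a common measure of how many cells of a sample are dividing. Macrophages recruited by an irritant come largely from blood monocytes and divide little, whereas resident peritoneal macrophages can renew themselves by division.

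The promoters of the members are shown because nearly all of the genes differed between the genotypes in the same direction. The elements described above belong to the class of genes that the rule chose. A high share of them among the members thus goes with that choice and does not bear on the genotype result. The RefSeq promoter table (GRCm38.p6) covers 250 bases before to 50 bases after each start site and held 30 of the 35 genes. Ccna2, Pbk, Aurkb, Kif20a and Tpx2 had no entry in it. The CHR was searched as TTTGAA or TTCGAA and the CCAAT box as CCAAT, each on both strands, and either may overlap the other. A CHR was present in 24 of 30 members (80.0%) and in 19.4% of all 27025 promoters of the table. A CCAAT box was present in 26 of 30 members (86.7%) and in 37.9% of all promoters, and 2 or more of them in 18 of 30 members and 12.2% of all promoters. Both elements occurred together in 76.7% of members and 7.70% of all promoters, and neither occurred in Birc5, Nuf2 and Nusap1. The 250 bases before the start site are given 5′ to 3′ on the gene's strand for the 6 members with an entry that had the smallest p between the genotypes under PCN, with both elements in capitals (ATTGG and TTCAAA are the opposite strand).
Top2a: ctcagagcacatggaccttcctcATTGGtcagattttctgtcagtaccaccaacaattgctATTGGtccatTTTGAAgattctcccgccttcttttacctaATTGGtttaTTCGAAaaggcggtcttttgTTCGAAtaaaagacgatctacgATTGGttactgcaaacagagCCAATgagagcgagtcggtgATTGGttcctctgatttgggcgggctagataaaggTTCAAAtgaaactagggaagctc
Ube2c: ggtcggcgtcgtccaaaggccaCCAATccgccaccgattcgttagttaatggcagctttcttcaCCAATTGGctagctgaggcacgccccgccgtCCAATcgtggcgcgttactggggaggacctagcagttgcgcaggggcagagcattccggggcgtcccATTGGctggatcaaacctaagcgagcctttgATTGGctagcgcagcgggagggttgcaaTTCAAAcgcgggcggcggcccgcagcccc
Mki67: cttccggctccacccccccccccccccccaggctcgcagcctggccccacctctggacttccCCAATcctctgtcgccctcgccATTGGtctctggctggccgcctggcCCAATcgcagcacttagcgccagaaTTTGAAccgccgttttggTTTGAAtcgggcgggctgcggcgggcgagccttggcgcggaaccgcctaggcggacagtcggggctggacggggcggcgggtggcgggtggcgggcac
Prc1: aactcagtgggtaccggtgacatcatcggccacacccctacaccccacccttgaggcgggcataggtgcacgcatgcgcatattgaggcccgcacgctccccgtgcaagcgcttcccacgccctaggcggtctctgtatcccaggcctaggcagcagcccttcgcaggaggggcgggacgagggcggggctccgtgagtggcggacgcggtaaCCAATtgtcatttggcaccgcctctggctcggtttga
Ccnb2: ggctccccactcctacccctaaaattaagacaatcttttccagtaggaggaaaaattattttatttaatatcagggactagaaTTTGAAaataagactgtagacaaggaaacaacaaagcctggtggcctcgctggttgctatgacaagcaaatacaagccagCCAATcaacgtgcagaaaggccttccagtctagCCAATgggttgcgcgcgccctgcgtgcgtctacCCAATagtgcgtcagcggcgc
Plk1: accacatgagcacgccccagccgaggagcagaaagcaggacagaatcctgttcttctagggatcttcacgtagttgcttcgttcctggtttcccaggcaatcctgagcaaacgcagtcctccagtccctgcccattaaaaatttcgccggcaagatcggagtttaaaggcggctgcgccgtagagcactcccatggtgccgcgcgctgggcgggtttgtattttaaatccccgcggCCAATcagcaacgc
The windows lie at chr11:99024190-99024439, chr2:164769679-164769928, chr7:135716380-135716629, chr7:80294201-80294450, chr9:70421555-70421804 and chr7:122159185-122159434, in that order, with Top2a, Mki67 and Ccnb2 on the minus strand. Top2a carried 6 CCAAT boxes and 4 CHR elements, the most CHR elements of the 30, and Ube2c carried 6 CCAAT boxes, of which 2 overlap in CCAATTGG. The CHR of Plk1 starts 31 bases after the start site, a further one of Ccnb2 starts 5 bases after it, and that of Prc1 spans it, so these are not in capitals. A match describes the letters only, and no factor's binding was measured.

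Library totals ran from 21993697 to 30228017 counts, so that 1 CPM (a count scaled to its library's total) stood for 22 to 30.2 counts. A count of 3, the floor used for a count of 0, was worth 0.0992 to 0.136 CPM, and the floor covers counting error only. Nr1i2, the gene of PXR, had 0 to 3 counts in dMye_PCN, 0 to 2 in dMye_DMSO, 0 to 1 in FF_PCN and 0 to 2 in FF_DMSO libraries, so its counts could not check the genotype labels. Macrophage markers were abundant in each group, with Cd68 at 2250 to 2490 CPM in dMye_PCN, 2190 to 2500 CPM in dMye_DMSO, 2420 to 2530 CPM in FF_PCN and 2510 to 2600 CPM in FF_DMSO libraries. Library dMye_DMSO 5 stood furthest from its group, with a chi-square per gene of 20.9 to 44.4 against its 5 partners, and results were also computed without dMye_DMSO 5 and 6 together. Nothing in the labels says that replicate libraries are separate mice or cultures, so the p-values cover the spread between libraries only, and that spread may be technical.

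Mitotic genes stood higher in dMye than in FF macrophages under both agents. Of the 35, 32 were higher and 0 lower in dMye_PCN than in FF_PCN, and 32 were higher and 0 lower in dMye_DMSO than in FF_DMSO, by edgeR's quasi-likelihood test at an adjusted p under 0.05. Over all tested genes, 16.2% were higher and 11.4% lower under PCN, and 13.9% were higher and 7.85% lower under DMSO. The median log2 fold change of the members was 1.51 under PCN, with a range of 0.19 to 2.30, and 1.26 under DMSO, with a range of 0.05 to 2.22. The median over all tested genes was 0.00 under PCN and 0.02 under DMSO. More than a 2-fold difference was found in 27 members under PCN and in 26 under DMSO. Cdca8, Ttk and Cenpa did not pass the test under PCN, and Cenpa, Cenpk and Spc25 did not pass it under DMSO.

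**Figure D1:**
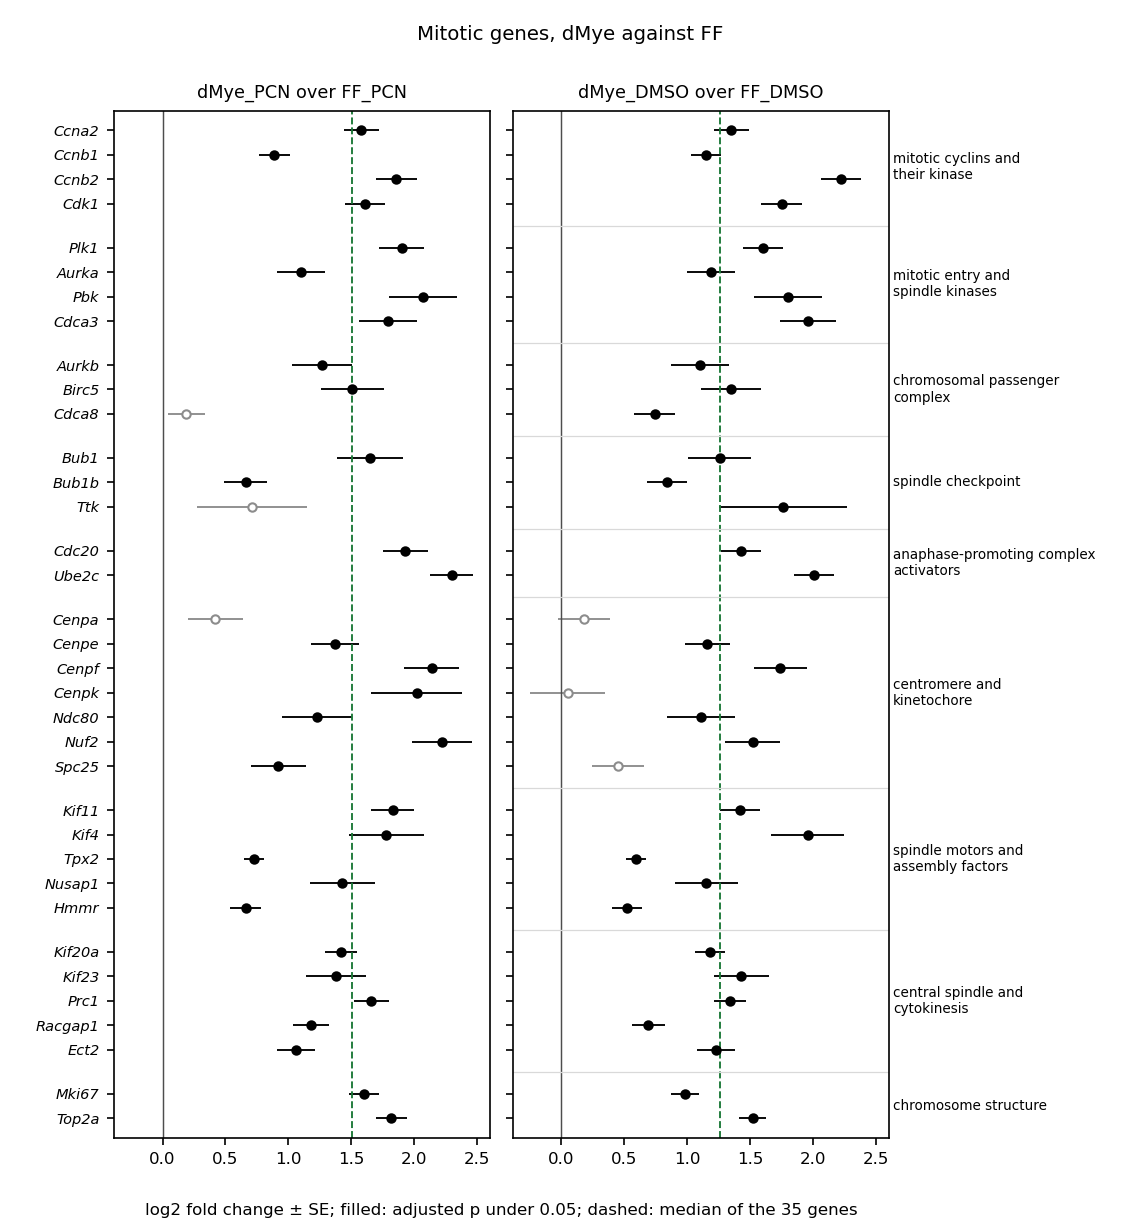
Log2 fold change of each of the 35 mitotic genes in dMye over FF, under PCN on the left and under DMSO on the right, with bars of 1 SE, grouped by role. Filled points had an adjusted p under 0.05, and the dashed lines mark the members' medians of 1.51 and 1.26, with 32 filled points in each panel.

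The levels of single libraries separated in the same way. Summed over the 35 members, the lowest, median and highest levels were 210, 220 and 231 CPM in dMye_PCN and 225, 244 and 252 CPM in dMye_DMSO libraries. The FF_PCN libraries had 86.1, 85 and 88.4 CPM, and the FF_DMSO libraries 105, 109 and 108 CPM. No library of 1 genotype reached the range of the other. Taken gene by gene, every dMye library was above every FF library of the same agent in 33 members under PCN, against 19.1% of all tested genes, and in 33 under DMSO, against 17.3%. Every dMye library was below every FF library in 0 members, against 7.58% of all tested genes under PCN and 6.26% under DMSO. The exceptions were Cdca8 and Ttk under PCN and Cenpa and Cenpk under DMSO. Both dMye group means were above both FF group means in 34 of the 35.

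In the accounts that follow, the 3 values given for a dMye group of 6 are its lowest, median and highest library. The 3 values given for an FF group are its libraries 1, 2 and 3. Levels are in CPM, and a log2 fold change is dMye over FF unless another pair is named.

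**Figure D2:**
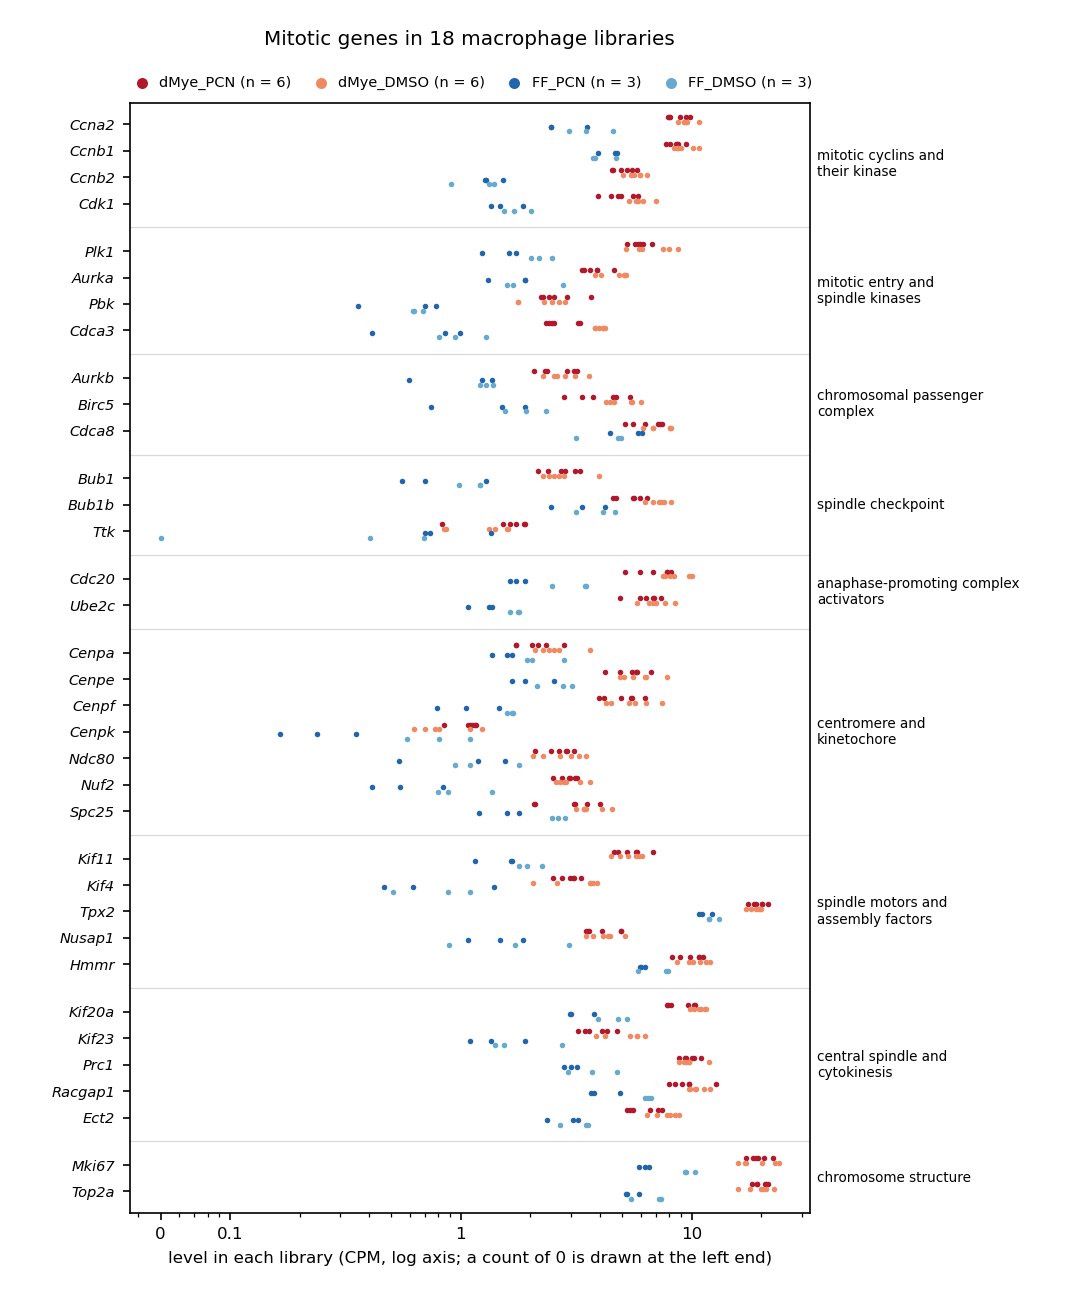
Level of each of the 35 mitotic genes in each of the 18 libraries, in CPM on a log axis, with 1 point per library, coloured by group and grouped by role. The red and orange dMye points lie to the right of the blue FF points in nearly every row, and Cenpk in FF_PCN, at 0.165 to 0.350 CPM, and Ttk in FF_DMSO 2, with a count of 0, lie furthest to the left.

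The mitotic cyclins and their kinase form the engine of mitosis: Ccna2, Ccnb1 and Ccnb2 encode cyclins A2, B1 and B2, which switch on the kinase encoded by Cdk1. Cdk1 was at 3.93, 4.87 and 5.87 CPM in dMye_PCN and 5.37, 5.83 and 7.03 CPM in dMye_DMSO, against 1.48, 1.35 and 1.86 CPM in FF_PCN and 1.7, 2.02 and 1.53 CPM in FF_DMSO libraries. Ccnb1 had levels of 7.71, 8.58 and 9.43 CPM in dMye_PCN and 8.38, 8.83 and 10.7 CPM in dMye_DMSO, against 3.93, 4.64 and 4.75 CPM in FF_PCN and 3.72, 3.81 and 4.69 CPM in FF_DMSO libraries. The groups of the genotypes did not overlap for either gene. Cdk1 had log2 fold changes of 1.61 (SE 0.16) under PCN and 1.75 (SE 0.16) under DMSO (adjusted p 1.0e-07 and 2.2e-08), and Ccnb1 had log2 fold changes of 0.89 (SE 0.12) under PCN and 1.15 (SE 0.12) under DMSO (adjusted p 5.1e-06 and 1.6e-07). Ccnb2 measured 4.53, 5.11 and 5.77 CPM in dMye_PCN and 5.06, 5.78 and 6.37 CPM in dMye_DMSO, against 1.52, 1.27 and 1.28 CPM in FF_PCN and 1.33, 1.39 and 0.909 CPM in FF_DMSO libraries. Ccna2 stood at 7.93, 8.48 and 9.84 CPM in dMye_PCN and 8.76, 9.35 and 10.8 CPM in dMye_DMSO, against 2.45, 2.46 and 3.51 CPM in FF_PCN and 3.48, 4.55 and 2.95 CPM in FF_DMSO libraries. Ccnb2 showed the largest difference of all members under DMSO, with log2 fold changes of 1.86 (SE 0.16) under PCN and 2.22 (SE 0.16) under DMSO, and Ccna2 had log2 fold changes of 1.58 (SE 0.14) under PCN and 1.35 (SE 0.14) under DMSO. The pseudogenes named for Ccnb1 and Ccnb2 could take part of their reads, so the levels of these 2 genes are less certain.

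Among the kinases of mitotic entry and the spindle, Plk1 promotes entry and spindle assembly, Aurka acts at the centrosomes, Pbk encodes a mitotic kinase and Cdca3 a factor that helps to destroy WEE1, an inhibitor of CDK1. Plk1 was at 5.27, 5.9 and 6.73 CPM in dMye_PCN and 5.18, 6.79 and 8.69 CPM in dMye_DMSO, against 1.24, 1.74 and 1.61 CPM in FF_PCN and 2.02, 2.49 and 2.18 CPM in FF_DMSO libraries. Aurka had levels of 3.35, 3.75 and 4.59 CPM in dMye_PCN and 3.82, 4.95 and 5.18 CPM in dMye_DMSO, against 1.9, 1.31 and 1.9 CPM in FF_PCN and 1.58, 1.69 and 2.76 CPM in FF_DMSO libraries. Both stood apart between the genotypes under both agents, with log2 fold changes of 1.90 (SE 0.18) under PCN and 1.60 (SE 0.16) under DMSO for Plk1 and log2 fold changes of 1.10 (SE 0.19) under PCN and 1.19 (SE 0.19) under DMSO for Aurka. Pbk measured 2.22, 2.47 and 3.67 CPM in dMye_PCN and 1.76, 2.39 and 2.82 CPM in dMye_DMSO, against 0.777, 0.357 and 0.702 CPM in FF_PCN and 0.687, 0.624 and 0.618 CPM in FF_DMSO libraries. Cdca3 stood at 2.33, 2.51 and 3.28 CPM in dMye_PCN and 3.8, 4.05 and 4.22 CPM in dMye_DMSO, against 0.855, 0.991 and 0.413 CPM in FF_PCN and 1.29, 0.807 and 0.945 CPM in FF_DMSO libraries. Pbk, at under 1 CPM in each FF library, had log2 fold changes of 2.07 (SE 0.27) under PCN and 1.80 (SE 0.27) under DMSO. Cdca3 had log2 fold changes of 1.79 (SE 0.23) under PCN and 1.96 (SE 0.22) under DMSO.

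The chromosomal passenger complex corrects faulty attachments of chromosomes to the spindle; Aurkb encodes its kinase, Birc5 encodes survivin and Cdca8 encodes borealin. Aurkb was at 2.07, 2.62 and 3.18 CPM in dMye_PCN and 2.27, 2.72 and 3.6 CPM in dMye_DMSO, against 1.36, 0.595 and 1.24 CPM in FF_PCN and 1.29, 1.21 and 1.38 CPM in FF_DMSO libraries. Birc5 had levels of 2.81, 4.15 and 5.38 CPM in dMye_PCN and 4.25, 5.02 and 6.05 CPM in dMye_DMSO, against 1.9, 1.51 and 0.743 CPM in FF_PCN and 2.34, 1.91 and 1.56 CPM in FF_DMSO libraries. Aurkb had log2 fold changes of 1.27 (SE 0.24) under PCN and 1.10 (SE 0.23) under DMSO, and Birc5 had log2 fold changes of 1.51 (SE 0.25) under PCN and 1.35 (SE 0.24) under DMSO. Cdca8 measured 5.13, 6.71 and 7.4 CPM in dMye_PCN and 6.14, 7.42 and 8.12 CPM in dMye_DMSO, against 5.87, 4.44 and 6.07 CPM in FF_PCN and 3.15, 4.81 and 4.95 CPM in FF_DMSO libraries. The lowest dMye_PCN library of Cdca8 lay inside the FF_PCN range, and its log2 fold change there, 0.19 (SE 0.15), did not pass the test (adjusted p 0.39). Under DMSO the 2 genotypes did not overlap, with a log2 fold change of 0.74 (SE 0.16, adjusted p 0.0015).

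The spindle checkpoint holds back anaphase until all chromosomes are attached; Bub1, Bub1b and Ttk encode its kinases BUB1, BUBR1 and MPS1. Bub1 stood at 2.16, 2.77 and 3.29 CPM in dMye_PCN and 2.27, 2.59 and 3.98 CPM in dMye_DMSO, against 0.70, 0.555 and 1.28 CPM in FF_PCN and 1.21, 1.21 and 0.982 CPM in FF_DMSO libraries. Bub1b was at 4.57, 5.58 and 6.43 CPM in dMye_PCN and 6.29, 7.31 and 8.16 CPM in dMye_DMSO, against 3.34, 2.46 and 4.21 CPM in FF_PCN and 4.12, 3.15 and 4.65 CPM in FF_DMSO libraries. Bub1 had log2 fold changes of 1.65 (SE 0.26) under PCN and 1.26 (SE 0.25) under DMSO, and Bub1b had log2 fold changes of 0.66 (SE 0.17) under PCN and 0.84 (SE 0.16) under DMSO. The call of Bub1b under PCN was lost without FF_PCN 2, where its log2 fold change was 0.48 (adjusted p 0.057). Ttk had levels of 0.827, 1.69 and 1.9 CPM in dMye_PCN and 0.845, 1.36 and 1.6 CPM in dMye_DMSO, against 0.738, 1.35 and 0.702 CPM in FF_PCN and 0.404, 0 and 0.691 CPM in FF_DMSO libraries. Ttk had few reads, with 19, 34 and 17 counts in FF_PCN and 10, 0 and 19 counts in FF_DMSO libraries. Its log2 fold change was 0.71 (SE 0.44, adjusted p 0.26) under PCN and 1.76 (SE 0.51, adjusted p 0.015) under DMSO, and the second was not called without FF_DMSO 2 or in a fit of the 2 groups alone (adjusted p 0.054 in each).

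The activators of the anaphase-promoting complex trigger the separation of chromosomes; Cdc20 recruits the complex's substrates and Ube2c attaches ubiquitin to them. Cdc20 measured 5.13, 7.29 and 8.15 CPM in dMye_PCN and 7.54, 8.21 and 9.98 CPM in dMye_DMSO, against 1.63, 1.9 and 1.73 CPM in FF_PCN and 3.48, 3.45 and 2.47 CPM in FF_DMSO libraries. Ube2c stood at 4.9, 6.58 and 7.34 CPM in dMye_PCN and 5.82, 6.91 and 8.48 CPM in dMye_DMSO, against 1.36, 1.07 and 1.32 CPM in FF_PCN and 1.78, 1.76 and 1.64 CPM in FF_DMSO libraries. Ube2c had the largest difference of all members under PCN, 4.92-fold, with log2 fold changes of 2.30 (SE 0.17) under PCN and 2.01 (SE 0.16) under DMSO (adjusted p 4.5e-10 and 1.9e-09). Cdc20 had log2 fold changes of 1.93 (SE 0.18) under PCN and 1.43 (SE 0.16) under DMSO, and its FF_PCN libraries were also below its FF_DMSO libraries.

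Genes of the centromere and kinetochore, the chromosome's anchor for the spindle, ranged from a log2 fold change of 0.05 to one of 2.22 between the genotypes. Cenpe encodes a kinetochore motor and Cenpf a large kinetochore protein. Cenpe was at 4.23, 5.6 and 6.65 CPM in dMye_PCN and 4.87, 5.94 and 7.83 CPM in dMye_DMSO, against 1.67, 2.54 and 1.9 CPM in FF_PCN and 3.03, 2.13 and 2.76 CPM in FF_DMSO libraries. Cenpf had levels of 3.97, 5.21 and 6.25 CPM in dMye_PCN and 4.25, 5.52 and 7.46 CPM in dMye_DMSO, against 1.05, 1.47 and 0.785 CPM in FF_PCN and 1.58, 1.69 and 1.67 CPM in FF_DMSO libraries. Neither overlapped between the genotypes, with log2 fold changes of 1.37 (SE 0.19) under PCN and 1.16 (SE 0.18) under DMSO for Cenpe and log2 fold changes of 2.14 (SE 0.22) under PCN and 1.74 (SE 0.21) under DMSO for Cenpf. Ndc80, Nuf2 and Spc25 encode subunits of the NDC80 complex, which grips the ends of microtubules. Ndc80 measured 2.09, 2.75 and 3.1 CPM in dMye_PCN and 2.05, 2.83 and 3.5 CPM in dMye_DMSO, against 1.55, 1.19 and 0.537 CPM in FF_PCN and 1.78, 1.1 and 0.945 CPM in FF_DMSO libraries. Nuf2 stood at 2.5, 2.95 and 3.2 CPM in dMye_PCN and 2.57, 2.83 and 3.62 CPM in dMye_DMSO, against 0.544, 0.833 and 0.413 CPM in FF_PCN and 1.37, 0.88 and 0.80 CPM in FF_DMSO libraries. Spc25 was at 2.07, 3.09 and 4.01 CPM in dMye_PCN and 3.15, 3.45 and 4.5 CPM in dMye_DMSO, against 1.79, 1.59 and 1.2 CPM in FF_PCN and 2.83, 2.64 and 2.47 CPM in FF_DMSO libraries. Nuf2 had log2 fold changes of 2.22 (SE 0.24) under PCN and 1.52 (SE 0.22) under DMSO, and Ndc80 had log2 fold changes of 1.23 (SE 0.28) under PCN and 1.11 (SE 0.27) under DMSO, with no overlap between the genotypes. Spc25 passed the test under PCN, at 0.92 (SE 0.22, adjusted p 0.0035), and did not under DMSO, at 0.45 (SE 0.21, adjusted p 0.13), although its libraries did not overlap there.

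Cenpa encodes the histone variant that marks the centromere. Cenpa had levels of 1.73, 2.09 and 2.81 CPM in dMye_PCN and 2.09, 2.48 and 3.64 CPM in dMye_DMSO, against 1.67, 1.59 and 1.36 CPM in FF_PCN and 2.79, 1.94 and 2.04 CPM in FF_DMSO libraries. It was the 1 member called in no comparison, with log2 fold changes of 0.42 (SE 0.22) under PCN and 0.18 (SE 0.21) under DMSO (adjusted p 0.16 and 0.56). Cenpk encodes a subunit of the inner kinetochore. Cenpk measured 0.845, 1.11 and 1.16 CPM in dMye_PCN and 0.629, 0.791 and 1.23 CPM in dMye_DMSO, against 0.35, 0.238 and 0.165 CPM in FF_PCN and 0.808, 0.587 and 1.09 CPM in FF_DMSO libraries. The dMye and FF libraries were apart under PCN, with a log2 fold change of 2.02 (SE 0.36, adjusted p 0.00019), and overlapped under DMSO, with 0.05 (SE 0.30, adjusted p 0.92). Cenpk shares exon sequence positions with its neighbour Ppwd1, so part of its reads cannot be assigned with certainty.

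Spindle motors and assembly factors build the bipolar spindle: Kif11 encodes the motor that pushes its poles apart, Kif4 a chromosome-bound motor, Tpx2 and Hmmr assembly factors and Nusap1 a microtubule-bundling protein. Kif11 stood at 4.59, 5.47 and 6.78 CPM in dMye_PCN and 4.47, 5.52 and 6.11 CPM in dMye_DMSO, against 1.67, 1.15 and 1.65 CPM in FF_PCN and 1.78, 2.24 and 1.93 CPM in FF_DMSO libraries. Kif4 was at 2.5, 3.02 and 3.3 CPM in dMye_PCN and 2.05, 3.65 and 3.87 CPM in dMye_DMSO, against 0.466, 1.39 and 0.619 CPM in FF_PCN and 1.09, 0.88 and 0.509 CPM in FF_DMSO libraries. Nusap1 had levels of 3.49, 3.84 and 4.96 CPM in dMye_PCN and 3.48, 4.23 and 5.15 CPM in dMye_DMSO, against 1.48, 1.86 and 1.07 CPM in FF_PCN and 0.889, 2.93 and 1.71 CPM in FF_DMSO libraries. The 3 genes were higher in each dMye library than in any FF library of the same agent, with log2 fold changes of 1.83 (SE 0.17) under PCN and 1.42 (SE 0.16) under DMSO for Kif11, log2 fold changes of 1.78 (SE 0.30) under PCN and 1.96 (SE 0.29) under DMSO for Kif4 and log2 fold changes of 1.43 (SE 0.26) under PCN and 1.15 (SE 0.25) under DMSO for Nusap1. Kif4 lies on the X chromosome. Whether its place there bears on its differences was not tested, and effects of genotype and of sex cannot be told apart, as the Y-linked genes below show. The pseudogene named for Kif4 could take part of its reads, so its level is less certain. Tpx2 measured 17.6, 19.5 and 21.3 CPM in dMye_PCN and 17.1, 19.2 and 19.9 CPM in dMye_DMSO, against 10.8, 11.1 and 12.2 CPM in FF_PCN and 11.9, 13.1 and 11.9 CPM in FF_DMSO libraries. Hmmr stood at 8.18, 10.3 and 11.2 CPM in dMye_PCN and 8.63, 10.5 and 12 CPM in dMye_DMSO, against 6.3, 6.03 and 5.99 CPM in FF_PCN and 7.72, 5.83 and 7.93 CPM in FF_DMSO libraries. These 2 had the smallest called differences of the role, with log2 fold changes of 0.73 (SE 0.08) under PCN and 0.59 (SE 0.08) under DMSO for Tpx2 and log2 fold changes of 0.66 (SE 0.12) under PCN and 0.52 (SE 0.12) under DMSO for Hmmr. Per kilobase of exon, their FF_DMSO levels of 2.63 and 1.32 CPM were among the highest of the members.

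The central spindle and the cleavage furrow divide the cell: Kif20a and Kif23 encode central spindle motors, Prc1 the protein that bundles its microtubules, Racgap1 the partner of KIF23 and Ect2 the activator of RhoA at the furrow. Kif20a was at 7.84, 8.9 and 10.3 CPM in dMye_PCN and 9.82, 10.8 and 11.5 CPM in dMye_DMSO, against 3.77, 2.97 and 3.01 CPM in FF_PCN and 3.92, 4.81 and 5.24 CPM in FF_DMSO libraries. Kif23 had levels of 3.21, 3.85 and 4.73 CPM in dMye_PCN and 3.86, 5.62 and 6.25 CPM in dMye_DMSO, against 1.09, 1.35 and 1.9 CPM in FF_PCN and 1.41, 2.75 and 1.53 CPM in FF_DMSO libraries. Prc1 measured 8.83, 9.74 and 11 CPM in dMye_PCN and 8.77, 9.57 and 11.9 CPM in dMye_DMSO, against 2.99, 3.17 and 2.81 CPM in FF_PCN and 2.91, 3.7 and 4.73 CPM in FF_DMSO libraries. The genotypes did not overlap in any of the 3, with log2 fold changes of 1.42 (SE 0.13) under PCN and 1.18 (SE 0.12) under DMSO for Kif20a, log2 fold changes of 1.38 (SE 0.24) under PCN and 1.43 (SE 0.22) under DMSO for Kif23 and log2 fold changes of 1.66 (SE 0.14) under PCN and 1.34 (SE 0.13) under DMSO for Prc1. Racgap1 stood at 7.94, 9.37 and 12.7 CPM in dMye_PCN and 9.77, 10.4 and 12 CPM in dMye_DMSO, against 3.77, 3.65 and 4.87 CPM in FF_PCN and 6.47, 6.64 and 6.29 CPM in FF_DMSO libraries. Ect2 was at 5.26, 6.07 and 7.41 CPM in dMye_PCN and 6.4, 7.91 and 8.81 CPM in dMye_DMSO, against 3.07, 3.21 and 2.35 CPM in FF_PCN and 3.56, 3.48 and 2.69 CPM in FF_DMSO libraries. Racgap1 had log2 fold changes of 1.18 (SE 0.14) under PCN and 0.69 (SE 0.13) under DMSO and Ect2 had log2 fold changes of 1.06 (SE 0.15) under PCN and 1.23 (SE 0.15) under DMSO.

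Mki67 encodes Ki-67, which coats mitotic chromosomes and is widely used as a marker of cycling cells, and Top2a encodes the topoisomerase that untangles DNA before it is separated. Mki67 had levels of 17.2, 19.2 and 22.6 CPM in dMye_PCN and 15.9, 18.6 and 23.9 CPM in dMye_DMSO, against 5.91, 6.5 and 6.28 CPM in FF_PCN and 10.3, 9.32 and 9.45 CPM in FF_DMSO libraries. Top2a measured 18.3, 19.9 and 21.4 CPM in dMye_PCN and 15.9, 20.1 and 22.7 CPM in dMye_DMSO, against 5.17, 5.27 and 5.91 CPM in FF_PCN and 5.46, 7.34 and 7.24 CPM in FF_DMSO libraries. The lowest dMye library of Mki67 was above the highest FF library under either agent, with log2 fold changes of 1.60 (SE 0.12) under PCN and 0.98 (SE 0.11) under DMSO (adjusted p 1.1e-09 and 8.5e-07). Top2a had the smallest p of all members under PCN, with log2 fold changes of 1.82 (SE 0.12) under PCN and 1.52 (SE 0.11) under DMSO (adjusted p 6.5e-11 and 7.7e-10).

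Per length of exon, which allows levels of different genes to be compared, the members spanned a wide range in each group. In dMye_PCN libraries the mean level was highest for Tpx2, at 4.17 CPM per kilobase, followed by Cdc20 at 3.72 and Ccnb2 at 3.33 CPM per kilobase, and lowest for Cenpk, at 0.205 CPM per kilobase. In FF_DMSO libraries Tpx2 also led, at 2.63 CPM per kilobase, and Ttk was lowest, at 0.0742 CPM per kilobase. Transcripts of single isoforms were not resolved, and the length used is that of all annotated exons.

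Markers of other cell types moved with the genotype. All 8 mesothelial markers, of the cells that line the peritoneal cavity, were higher in dMye under both agents, with a median log2 fold change of 2.60 under PCN and 2.57 under DMSO. Their summed level was 123 to 151 CPM in dMye_PCN and 146 to 158 CPM in dMye_DMSO, against 20.4 to 22.3 CPM in FF_PCN and 24.1 to 28.4 CPM in FF_DMSO libraries. All 6 fibroblast markers were higher as well, with medians of 1.98 and 1.87, and summed to 557 to 647 CPM in dMye_PCN and 537 to 713 CPM in dMye_DMSO, against 137 to 153 CPM in FF_PCN and 169 to 173 CPM in FF_DMSO libraries. Of the 4 tested markers of resident large peritoneal macrophages, Timd4, Gata6, Icam2 and Rarb, 4 were higher under PCN and 3 under DMSO, where Icam2 did not pass. Over all tested genes, 16.2% were higher under PCN and 13.9% under DMSO. Adgrb3, the fifth on the list, had no count in any library. The sum of these markers was 21.2 to 23.6 CPM in dMye_PCN and 22.8 to 28.9 CPM in dMye_DMSO, against 7.46 to 9.46 CPM in FF_PCN and 9.54 to 12.7 CPM in FF_DMSO libraries. In dMye libraries Gata6 had its largest share, with means of 13.4 CPM in dMye_PCN and 14 CPM in dMye_DMSO. The mean sums there were 22.6 and 26.1 CPM. The sum thus rests largely on 1 gene, and which cells the Gata6 RNA came from was not measured. Timd4 had means of 1.58 CPM in dMye_PCN and 2.77 CPM in dMye_DMSO, against 0.185 CPM in FF_PCN and 0.255 CPM in FF_DMSO libraries. In bulk RNA, more cells of a type and more RNA per cell cannot be told apart, and the part of these cell types in the mitotic result was not tested.

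**Figure D3:**
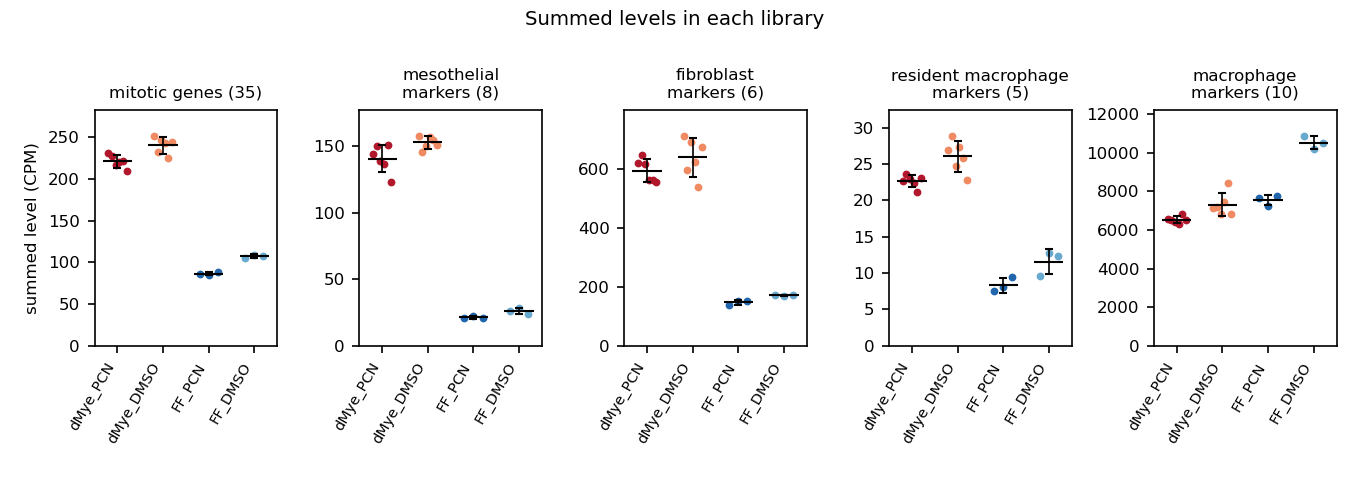
Summed level in CPM of the 35 mitotic genes and of 4 marker lists in each library, 1 point per library, with the mean (line) and SD (bar) of each group. The mitotic, mesothelial, fibroblast and resident macrophage sums are higher in each dMye library than in each FF library. In dMye, Gata6 has the largest share of the resident macrophage sum. The general macrophage sum is not higher, at 6310 to 6850 CPM in dMye_PCN, 6810 to 8460 CPM in dMye_DMSO, 7250 to 7740 CPM in FF_PCN and 10200 to 10900 CPM in FF_DMSO. Lyz2 has its largest share, with means of 3270 CPM in dMye_PCN, 4060 CPM in dMye_DMSO, 4390 CPM in FF_PCN and 7140 CPM in FF_DMSO.

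General macrophage markers were 7 higher and 1 lower of 10 under PCN and 3 higher and 2 lower under DMSO, although their sum, in which Lyz2 has the largest share, was lower in dMye. B cell markers were 0 higher and 2 lower of 8 under PCN and 0 higher and 6 lower under DMSO. Tested neutrophil markers were 0 higher and 1 lower of 6 under PCN and 0 higher and 3 lower under DMSO, and Ly6g, which defines neutrophils, had no count in any library. T cell markers were 1 higher and 1 lower of 5 tested under PCN and 0 and 2 under DMSO, NK cell markers 1 and 0 of 2, and 0 and 0, eosinophil and mast cell markers 1 and 0 of 3, and 0 and 0, and dendritic cell markers 0 and 1 of 4, and 0 and 2. Beside these counts, 16.2% of all tested genes were higher and 11.4% lower under PCN, and 13.9% and 7.85% under DMSO. With lists this short, 1 or 2 called markers were not read as a change of a cell type. The 4 Y-linked genes summed to 0.463 to 1.49 CPM in dMye_PCN and 0.630 to 0.993 CPM in dMye_DMSO, against 123 to 137 CPM in FF_PCN and 113 to 128 CPM in FF_DMSO libraries. The Y-linked levels divided the libraries as the genotype did, so that effects of genotype and of sex on the mitotic genes cannot be told apart.

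PCN lowered some mitotic genes in FF macrophages. Of the 35, 6 fell and 0 rose in FF_PCN against FF_DMSO, while 6.98% of all tested genes fell and 6.82% rose. The 6 were Cenpk, Cdc20, Spc25, Racgap1, Mki67 and Kif20a, of the kinetochore, the anaphase trigger, the central spindle and the chromosome surface. At an unadjusted p under 0.05 there were 13 members (37.1%), against 26.5% of all tested genes, and DESeq2 also called Ttk, as higher, at an adjusted p of 0.044. The members' median log2 fold change was -0.35, against 0.01 over all genes, and 30 of the 35 had a negative value, against 48.5% of all genes. Every FF_PCN library was below every FF_DMSO library in 11 members, against 18.2% of all tested genes, and above in 1, Ttk, against 15.3%. The comparison shares its FF_PCN libraries with that of dMye_PCN over FF_PCN and its FF_DMSO libraries with that of dMye_DMSO over FF_DMSO.

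The values of these genes per library are those given above. Mki67 was at 5.91, 6.5 and 6.28 CPM in FF_PCN, against 10.3, 9.32 and 9.45 CPM in FF_DMSO libraries, and its log2 fold change was -0.61 (SE 0.14, adjusted p 0.0037). Racgap1, at 3.77, 3.65 and 4.87 CPM against 6.47, 6.64 and 6.29 CPM, had -0.64 (SE 0.15, adjusted p 0.0068). Both were called in all 25 alternative settings, as was Cenpk. Cenpk rested on 9, 6 and 4 counts in FF_PCN and on 20, 16 and 30 counts in FF_DMSO libraries, with a log2 fold change of -1.68 (SE 0.40, adjusted p 0.0062). Cdc20, at 1.63, 1.90 and 1.73 CPM in FF_PCN against 3.48, 3.45 and 2.47 CPM in FF_DMSO, had -0.81 (SE 0.21, adjusted p 0.011), and limma-voom did not call it (adjusted p 0.077). The FF_PCN and FF_DMSO libraries did not overlap for these 4 genes, nor for Kif20a and Spc25. Kif20a had -0.50 (SE 0.15, adjusted p 0.030) and Spc25 -0.77 (SE 0.25, adjusted p 0.044). Their calls were lost in 6 and 10 of the 25 settings, with adjusted p up to 0.13 for Kif20a and 0.16 for Spc25.

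**Figure D4:**
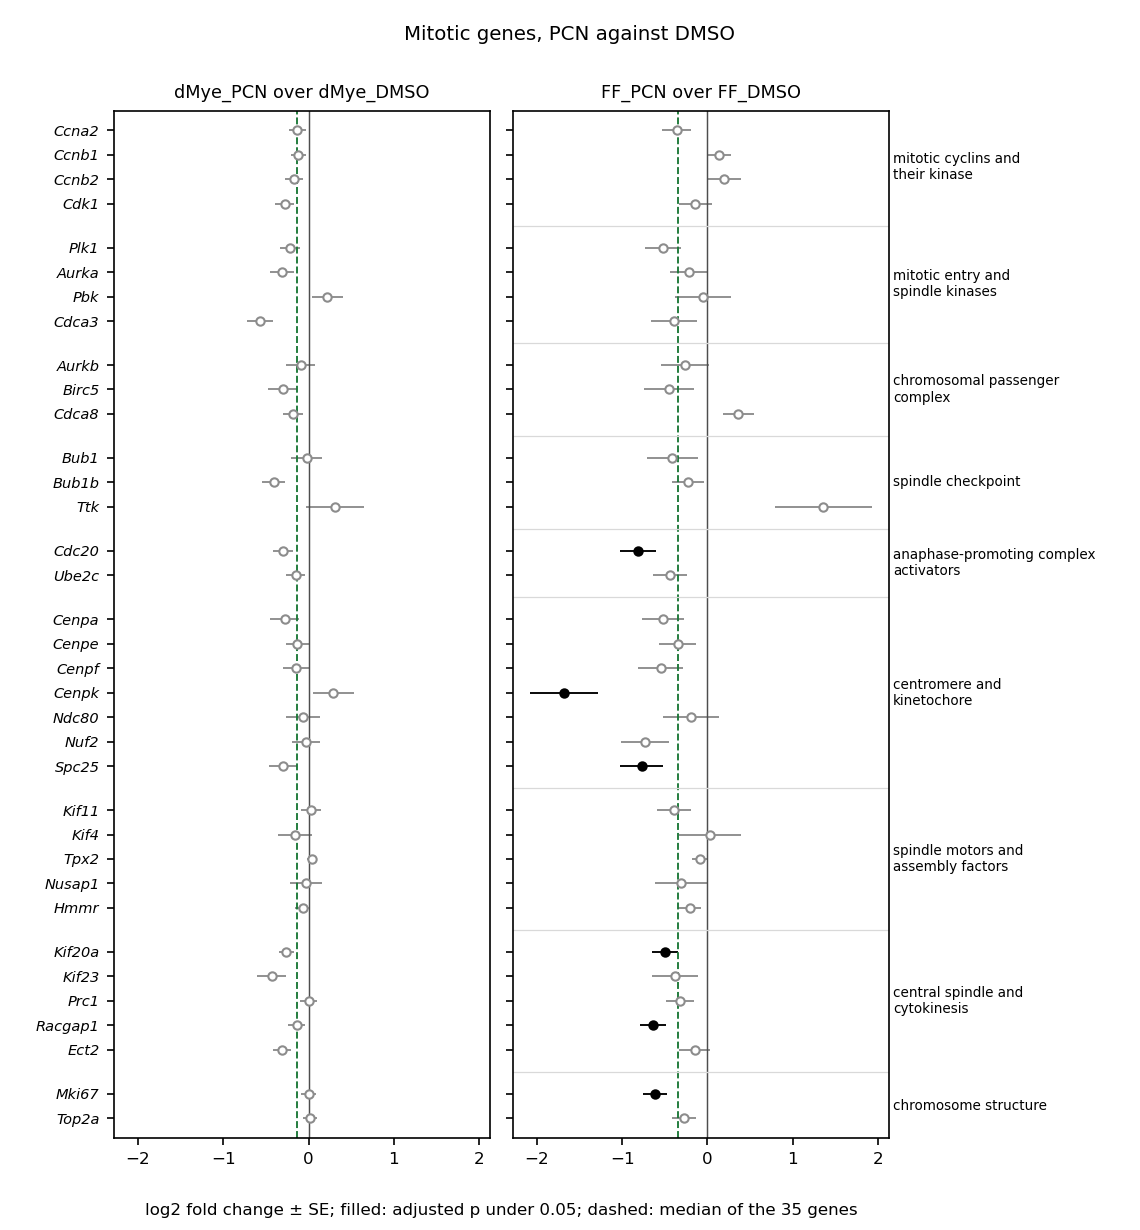
Log2 fold change of each of the 35 mitotic genes in PCN over DMSO, in dMye on the left and in FF on the right, with bars of 1 SE, grouped by role. Filled points had an adjusted p under 0.05, which 0 members reached in dMye and 6 in FF, and the dashed lines mark the members' medians of -0.14 and -0.35.

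No member of the other roles passed the test in FF cells. None of the 4 genes of the mitotic cyclins and their kinase, with a median log2 fold change of 0.00, and none of the 5 spindle motors and assembly factors, with -0.21, passed the test. Ccnb1, Ccnb2 and Cdca8 had positive values, of 0.14 (SE 0.14), 0.19 (SE 0.20) and 0.36 (SE 0.18), that did not pass it. Ttk had 1.36 (SE 0.57, adjusted p 0.12) on the counts given above. Nuf2, at -0.73 (SE 0.28, adjusted p 0.089), and Plk1, at -0.52 (SE 0.21, adjusted p 0.10), were closest to the threshold among the lower ones that missed it. Beside these values, 7 of 10 macrophage markers, 4 of 8 B cell markers and 2 of 6 neutrophil markers fell in FF_PCN. So did 1 of 4 resident macrophage markers, 1 of 8 mesothelial markers and 0 of 6 fibroblast markers, where 6.98% of all tested genes fell. The part of these cell types in the mitotic result of FF cells was not tested.

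In dMye macrophages, edgeR called 0 of the 35 for PCN, where 0.940% of all tested genes rose and 1.14% fell. At an unadjusted p under 0.05 there were 8 members (22.9%), against 15.1% of all tested genes. DESeq2 called 2 members, Cdca3 and Bub1b, and 4.36% of all tested genes, and limma-voom called 1 member, Cdca3. The median log2 fold change was -0.14, with a range of -0.57 to 0.31, against -0.01 over all genes, and 28 of 35 values were negative, against 52.7% of all genes. Cdca3 was closest to the threshold, with -0.57 (SE 0.15, adjusted p 0.056). Its dMye_PCN libraries, at 2.33 to 3.28 CPM, were all below its dMye_DMSO libraries, at 3.80 to 4.22 CPM, and it was the only member whose groups did not overlap, against 1.31% of all tested genes that were lower and 1.03% that were higher in that way. Bub1b had -0.41 (SE 0.13, adjusted p 0.098). Mki67 averaged 19.5 ± 1.89 CPM in dMye_PCN and 19.5 ± 3.38 CPM in dMye_DMSO libraries (SD, n = 6 each), a log2 fold change of 0.00 (SE 0.09). Of the marker lists, 1 of 10 macrophage and 1 of 4 resident macrophage markers fell, and 0 of 8 mesothelial and 0 of 6 fibroblast markers passed the test.

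The difference between the PCN effects, dMye minus FF, was tested in the same edgeR fit. It was called for 1 member, Cenpk, while 0.746% of all tested genes had a called positive and 0.671% a called negative difference. The difference for Cenpk was 1.97 on the log2 scale (SE 0.47, adjusted p 0.037), from 0.29 (SE 0.24) in dMye and -1.68 (SE 0.40) in FF. It was not called in 11 of the 24 alternative settings that gave an adjusted p, with values up to 0.12, and DESeq2 gave none. Mki67, with 0.62 (SE 0.16), had an adjusted p of 0.059 and was called in 6 of 25 alternative settings, DESeq2 among them (adjusted p 0.018), with adjusted p of 0.018 to 0.16 over the 25. For the other genes called in FF, the difference was 0.51 for Cdc20, 0.49 for Racgap1, 0.47 for Spc25 and 0.24 for Kif20a, with adjusted p of 0.21 to 0.64. A smaller effect of PCN in dMye than in FF was thus not shown for these 4.

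Further genes of mitosis and of the rest of the cell cycle were followed as lists. Of 67 other mitotic genes, 44 were higher and 1, Psrc1, lower in dMye under PCN, and 37 were higher and 0 lower under DMSO, with median log2 fold changes of 0.92 and 0.87. The higher share was 65.7% under PCN and 55.2% under DMSO, against 16.2% and 13.9% of all tested genes. Under PCN the smallest p belonged to Anln, an actin-binding protein of the cleavage furrow (1.75, SE 0.12), Kif2c, a kinesin that takes microtubules apart (2.21, SE 0.19), Ckap2l, a spindle protein (1.84, SE 0.18) and Aspm, which organises spindle poles (2.0, SE 0.22). In FF cells PCN lowered 6 of the 67 and raised 0, namely Sgo2a, Gtse1, Espl1, Smc2, Mad1l1 and Anln, with a median over the list of -0.16. The share that fell, 8.96%, was near the 6.98% of all tested genes. In dMye cells edgeR called 0 of them, with 6 (8.96%) at an unadjusted p under 0.05, against 15.1% of all tested genes, and a median of -0.13. The medians of the wider list had the same signs as those of the 35 and were closer to 0.

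**Figure D5:**
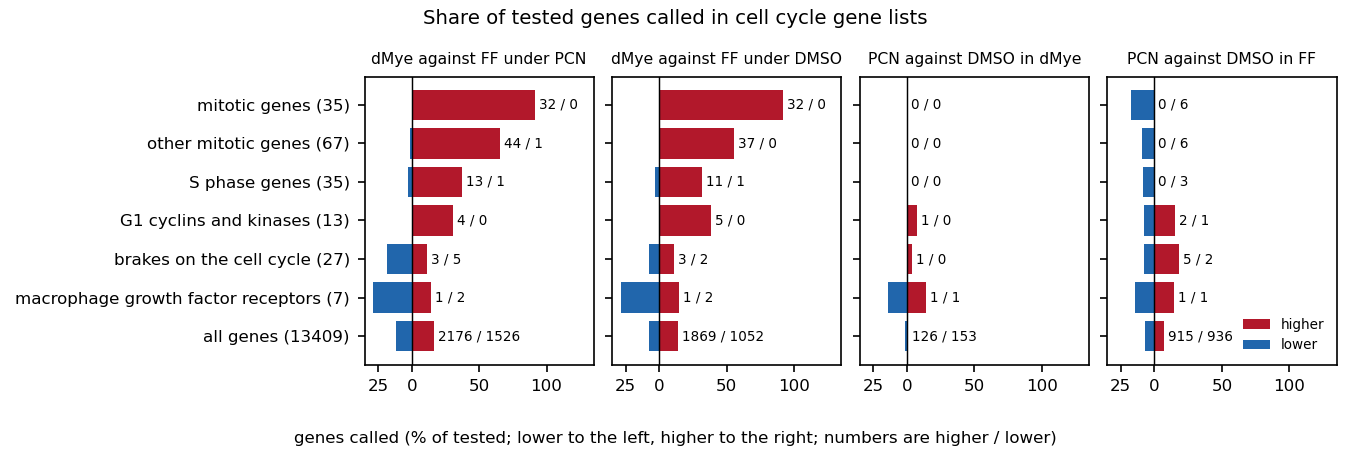
Share of tested genes called higher (red, to the right) or lower (blue, to the left) in each cell cycle list and over all genes, in percent, for the 2 genotype and the 2 PCN comparisons; the numbers beside the bars count higher and lower genes. The mitotic lists stand far above all genes in the genotype panels, at 32 of 35 and 44 of 67 under PCN, and the S phase list stands between.

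Genes of S phase, in which DNA is copied, had medians nearer to 0 between the genotypes. Of 35, 13 were higher and 1 lower in dMye under PCN and 11 higher and 1 lower under DMSO, with medians of 0.21 and 0.14. The higher share was 37.1% under PCN and 31.4% under DMSO, against 16.2% and 13.9% of all tested genes. The lower share was 2.86% under either agent, against 11.4% of all tested genes under PCN and 7.85% under DMSO. Tk1, a thymidine kinase (2.07, SE 0.36), and Rrm2 and Rrm1, the subunits of ribonucleotide reductase (1.44, SE 0.15, and 0.43, SE 0.07), were higher under PCN. Cdt1, which licenses replication origins, was lower (-0.37, SE 0.06). In FF cells PCN lowered 3 of the list, Gins1, Mcm5 and Mcm6, and raised 0, and the share that fell, 8.57%, was near the 6.98% of all tested genes. In dMye cells edgeR called 0, with 2 (5.71%) at an unadjusted p under 0.05, against 15.1% of all tested genes.

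Among 13 G1 cyclins and kinases, which act before S phase, 4 were higher and 0 lower in dMye under PCN and 5 higher and 0 lower under DMSO. The higher share was 30.8% under PCN and 38.5% under DMSO, against 16.2% and 13.9% of all tested genes. Of all tested genes, 11.4% were lower under PCN and 7.85% under DMSO. Under DMSO the 4 with the smallest p were Ccnd2, cyclin D2 (0.98, SE 0.10), Myc, a growth-promoting transcription factor (0.36, SE 0.07), Ccnd3, cyclin D3 (0.49, SE 0.11), and Cdk4, the kinase of the D cyclins (0.31, SE 0.08). In FF cells PCN raised Myc by 0.56 and Cdc25a, a phosphatase that activates cyclin-dependent kinases, by 0.36 on the log2 scale, and lowered E2f2 by 1.08. That was 15.4% of the list raised and 7.69% lowered, against 6.82% and 6.98% of all tested genes. In dMye cells PCN raised Myc by 0.25, or 7.69% of the list, against 0.940% of all tested genes. In FF cells with PCN, Myc was higher, and E2f2 and the called mitotic genes were lower. A link between them was not tested.

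Of the 27 brakes on the cell cycle, 3 were higher and 5 lower in dMye under PCN, or 11.1% and 18.5%, against 16.2% and 11.4% of all tested genes. Under DMSO 3 were higher and 2 lower, or 11.1% and 7.41%, against 13.9% and 7.85% of all tested genes. Under PCN the smallest p belonged to Btg1, an antiproliferative factor (-0.26, SE 0.05), Cdkn1a, the inhibitor p21 (-0.24, SE 0.05), Maf, a factor that restrains macrophage self-renewal (0.29, SE 0.07), and Cdkn1c, the inhibitor p57 (-0.36, SE 0.09). In FF cells PCN raised 5, namely Btg1 (0.50), Lin52 (0.48), Cdkn1a (0.38), Lin54 (0.34) and Gadd45a (0.30), and lowered 2, Rbl2 (-0.37) and Maf (-0.25). These were 18.5% and 7.41% of the list, against 6.82% and 6.98% of all tested genes. Lin52, Lin54 and Rbl2 belong to the complex that represses mitotic genes at the CHR, and its part in the mitotic result was not tested. In dMye cells PCN raised Btg1 (0.22), or 3.7% of the list, against 0.940% of all tested genes, and lowered 0 of the list.

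Of the list of macrophage growth factors, receptors and the transcription factor gene Spi1, 7 of 8 were tested. Csf1, the growth factor M-CSF, was higher in dMye under DMSO (0.38, SE 0.06), and Csf2rb and Csf2rb2, receptor chains of GM-CSF and IL-3, were lower (-0.50, SE 0.07, and -0.58, SE 0.09). Under PCN 1 was higher and 2, the same receptor chains, were lower. Under either agent that was 14.3% of the tested list higher and 28.6% lower. Of all tested genes, 16.2% were higher and 11.4% lower under PCN, and 13.9% and 7.85% under DMSO. PCN raised Csf1 by 0.52 in FF and 0.28 in dMye cells on the log2 scale, and lowered its receptor Csf1r, at -0.39 in FF and -0.18 in dMye cells. Each was 14.3% of the tested list. Of all tested genes, 6.82% rose and 6.98% fell in FF, and 0.940% rose and 1.14% fell in dMye.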

How the data were processed

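For 18 libraries the authors deposited expected counts of each gene, estimates of read number that can be fractional, and the submitters' processing notes name build mm10. Aligner, quantifier, annotation and strand setting: not given in the sources used here. Expected counts were rounded, and genes were kept by filterByExpr. One edgeR fit (edgeR 4.0.16, R 4.3.3, quasi-likelihood with robust settings and TMM factors) covered the 18 libraries in 4 groups, with no covariate, and gave 5 contrasts. P-values were adjusted by Benjamini-Hochberg over all 13409 tested genes, and genes under 0.05 are called. The SE was taken as |log2 fold change| over the square root of F. CPM are of unscaled library totals. Chi-square per gene between libraries of a group was 3.72 to 44.4, so no library was counted as a copy of another.

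The members and all gene lists were chosen with earlier results of these data known. For each member called in any contrast, the values of each FF library and the lowest, median and highest of each dMye group are given. Each list is given by its counts and up to 4 called genes with the smallest p, and promoters by the smallest p. Coordinates and exon lengths came from GENCODE gene models (GRCm38), which held the symbols of all 35 members. Pseudogenes named for Ccnb1, Ccnb2 and Kif4, and exons of other genes that overlap 11 members, make those counts less certain. Results were recomputed with RLE or upper-quartile scaling, with no filter or 1 CPM in at least 6 libraries, DESeq2 1.42.0, limma-voom (limma 3.58.1), a fit of the compared groups alone, TMM-scaled CPM, and leaving out each library in turn or dMye_DMSO 5 and 6 together. A further allele carried by both genotypes is not reported here.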

Additional observations from a re-analysis of the deposited data

Results flagged for a closer look

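In the dMye groups of 6, 5 of 72 tests of the highest or lowest library found it far from the rest of its group, and chance flags about 1 in 20. Bub1 was at 3.98 CPM in dMye_DMSO 4, with the next library at 2.79 CPM. Ttk was at 0.827 CPM in dMye_PCN 2, with the next at 1.52 CPM. Cenpa was at 3.64 CPM in dMye_DMSO 5, with the next at 2.66 CPM. Cenpk was at 0.845 CPM in dMye_PCN 4, with the next at 1.07 CPM. Prc1 was at 11.9 CPM in dMye_DMSO 1, with the next at 9.75 CPM. The summed level of the 35 genes had no such library. The effect of PCN on Cenpk differed between dMye and FF by 1.97 on the log2 scale (SE 0.47, edgeR adjusted p 0.037), by a test of the difference itself.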

How the results depend on the processing

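The genotype result kept its direction in each called member in the settings computed. The number of members called under PCN was 31 to 32 with each library left out, and likewise under DMSO. Of the 35 members in the comparison of PCN with DMSO in dMye, 0 were called by edgeR with TMM scaling, 1 with upper-quartile scaling, 2 with DESeq2, 1 with limma-voom, 1 with only the groups compared, and 0 to 1 with a library left out. In FF, 6 were called, 3 with limma-voom, and 4 to 6 with a library left out. The difference between the PCN effects was called in 1, in 2 with upper-quartile scaling, in 1 with DESeq2, in 0 with limma-voom, and in 0 to 2 with a library left out. It was Mki67 and not Cenpk with DESeq2 (adjusted p 0.018), which gave no adjusted p for Cenpk, without dMye_DMSO 3 (0.033) and without dMye_DMSO 5 and 6 (0.040). The mean summed level in FF_PCN was 86.5 CPM and 88.8 CPM with TMM scaling. Over all genes, the count called for PCN in dMye was 279, 584 with DESeq2, 144 with only the groups compared, 179 without dMye_DMSO 5 and 6, and 137 to 371 with a library left out. That for PCN in FF was 1851, and 1201 to 2175 with a library left out, and that for the difference was 190, 426 with DESeq2, and 42 to 261. Upper-quartile scaling moved the share of calls that were higher in dMye to 74.8% under PCN, against 58.8%, and to 76.0% under DMSO, against 64.0%. It moved the share higher with PCN to 31.2% in dMye, against 45.2%, and to 38.2% in FF, against 49.4%. The causes were not tested. No paired analysis was possible because replicate numbers only name the libraries. Members with few counts, such as Cenpk and Ttk, have the widest errors.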
